A study of Homo sapiens with 6 samples.

Results

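The genes described here encode Golgi proteins that bind phosphatidylinositol 4-phosphate (PI4P), together with the small GTPase ARF1. They were taken by symbol from the deposited count table: GOLPH3, GOLPH3L, PLEKHA3, PLEKHA8, CERT1, GGA1, GGA2, GGA3 and ARF1. All 9 were found, each in 1 row, among 63140 genes listed, and all 9 passed the filter on low counts, as did 16754 genes in all. HEK293, an established human cell line from embryonic kidney, was grown to confluence and exposed for 24 h either to the solvent dimethyl sulfoxide (DMSO) or to 100 nM GSK-A1, an inhibitor of phosphatidylinositol 4-kinase alpha (PI4KA). There were 3 libraries per group, labelled as biological replicates of the 1 line, with no genetic change in either group. The p-values set the difference between groups against the spread between libraries within a group. The labels do not say whether replicates were separate passages or days, so what that spread covers is not known.

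PI4P is made on the Golgi mainly by PI4KB and PI4K2A, whereas PI4KA works at the plasma membrane. On trans-Golgi membranes PI4P and GTP-bound ARF1 act together as a landing site for cytosolic proteins: lipid transfer proteins with a PH domain, clathrin adaptors, and GOLPH3. These proteins in turn set which lipids, glycosyltransferases and cargo receptors leave the Golgi, and their recruitment depends on the lipid rather than on transcription, so the comparison here asks only whether their mRNA differed after the plasma membrane enzyme had been inhibited.

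With GSK-A1, 3 of the 9 genes rose and 0 fell. PLEKHA3, which encodes FAPP1, rose by 22.4%, and PLEKHA8, which encodes FAPP2, and GOLPH3 each rose by 9.5%. Calls were made at an adjusted p under 0.05 by edgeR's quasi-likelihood test with Benjamini-Hochberg adjustment over all genes tested. By that rule 22.9% of all tested genes were called, 12.0% as higher and 10.9% as lower. A count of 3 in 9 is thus close to the background, and the sizes were small. The median log2 fold change of the 9 was 0.05, against -0.01 over all genes tested, and 8 of the 9 values were above 0 (6 under upper-quartile factors or with the GC trend removed). At an unadjusted p under 0.05 the members' counts were the same, 3 higher and 0 lower, against 18.1% of all tested genes higher and 17.7% lower.

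Total counts ranged from 33040178 to 47777233 per library, and the members' counts from 702 to 36639. GSK-A1 replicate 2 stood apart from the other GSK-A1 libraries, with a chi-square per gene of 10.98 and 15.5 against replicates 1 and 3, which gave 2.88 with each other. The calls of the members and the counts of most lists are given with and without it. Values of single pathway genes are mostly given with all 6 libraries. Of 6 markers expected in HEK293, 5 reached a mean of 1 CPM (counts scaled to a common library total with TMM factors) and NEFM did not. Of 6 markers of blood, endothelial, liver, fibroblast and muscle cells none reached 1 CPM, COL1A2 had 0 counts in all libraries, and their summed level was 1.17 to 1.21 CPM with DMSO and 0.94 to 1.70 CPM with GSK-A1.

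For the genes that rose, DNA before the RefSeq start is shown beside that of GOLPH3L, the paralog of GOLPH3 that was not called. Promoters of 8 members, all but GGA2, were matched by symbol in RefSeq (GRCh38.p14). For these 4 genes only bases outside exons of GENCODE 29 are printed, 5′ to 3′ on the gene's strand, which gives chr2:178480207-178480456 (plus strand) for PLEKHA3, chr7:30028162-30028360 (plus) for PLEKHA8, chr5:32174351-32174470 (minus) for GOLPH3 and chr1:150697155-150697404 (minus) for GOLPH3L. The stretches differ in extent, so they cannot be compared base for base. Counted back from the RefSeq start, they run from base 250 to 1 for PLEKHA3 and GOLPH3L, 250 to 52 for PLEKHA8 and 151 to 32 for GOLPH3. The PLEKHA8 stretch lies inside the gene's span in GENCODE 29 (chr7:30027404-30130483), which starts upstream of the RefSeq start. Capitals mark CCAAT boxes, which read ATTGG on the other strand.
PLEKHA3: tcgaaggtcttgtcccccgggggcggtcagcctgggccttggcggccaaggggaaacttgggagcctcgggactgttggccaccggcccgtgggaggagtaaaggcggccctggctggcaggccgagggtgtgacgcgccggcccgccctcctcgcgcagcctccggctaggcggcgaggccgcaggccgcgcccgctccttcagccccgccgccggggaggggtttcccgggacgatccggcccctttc
PLEKHA8: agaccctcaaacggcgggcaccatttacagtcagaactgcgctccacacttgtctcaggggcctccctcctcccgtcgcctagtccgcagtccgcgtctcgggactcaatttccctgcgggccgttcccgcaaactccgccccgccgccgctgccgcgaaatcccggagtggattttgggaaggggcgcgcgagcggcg
GOLPH3: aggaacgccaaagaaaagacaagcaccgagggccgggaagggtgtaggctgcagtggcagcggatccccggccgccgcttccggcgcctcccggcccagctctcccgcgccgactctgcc
GOLPH3L: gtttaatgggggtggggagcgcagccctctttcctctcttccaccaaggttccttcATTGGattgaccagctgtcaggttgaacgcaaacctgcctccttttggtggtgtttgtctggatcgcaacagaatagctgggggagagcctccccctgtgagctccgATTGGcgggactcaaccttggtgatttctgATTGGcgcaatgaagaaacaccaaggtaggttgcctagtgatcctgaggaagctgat

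Each motif was searched on both strands of the 250 bases before the start, and no matches overlapped. GOLPH3L held 3 CCAAT boxes, beginning 194, 87 and 57 bases before the start, and the other 7 matched members held none. Of 27305 promoters, 33.0% held at least 1 CCAAT. The Golgi apparatus stress response element, ACGTGGC, occurred in 1 member, ARF1, and in 2.85% of promoters. It begins 14 bases before the ARF1 start and is shown in capitals in the last 30 bases before it (chr1:228082678-228082707, plus strand). These 30 bases, and with them the match, lie inside an exon of ARF1 in GENCODE 29, whose gene model starts upstream of the RefSeq start.
ARF1: gcgcccggaggcgctgACGTGGCcgccgtc
The ETS site CCGGAAGT, found in 3.64% of promoters, occurred in no matched member. The GC content of the 250 bases was 75.2% for PLEKHA3, 70.4% for GOLPH3 and 68.8% for PLEKHA8. Among members that were not called it was 77.2% for ARF1, 69.6% for GGA1, 68.0% for CERT1, 54.8% for GGA3 and 53.2% for GOLPH3L, so the ranges overlapped.

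Levels were compared between genes per length, as CPM per kilobase of the longest GENCODE transcript, in the 3 DMSO libraries. ARF1 stood far above the rest at 374 ± 1.14 CPM per kb (SD, n = 3). GOLPH3 followed at 32.3 ± 0.19, then GGA1 at 30.2 ± 0.87 and GGA2 at 22.0 ± 0.11. GGA3, at 13.1 ± 0.08, and GOLPH3L, at 12.8 ± 0.28, overlapped in their ranges over libraries. PLEKHA8 had 7.85 ± 0.25 CPM per kb, CERT1 3.83 ± 0.04 and PLEKHA3 1.61 ± 0.07. The order in the middle depends on the length used. Over all annotated exonic bases GGA1 had 10.3 CPM per kb, below GGA2 (15.9) and GOLPH3L (11.5), and CERT1 (1.74) lay next to PLEKHA3 (1.58). ARF1 was in the top percent of tested genes by CPM (percentile 99.2), and PLEKHA3 near the middle (percentile 56.0).

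**Figure D1:**
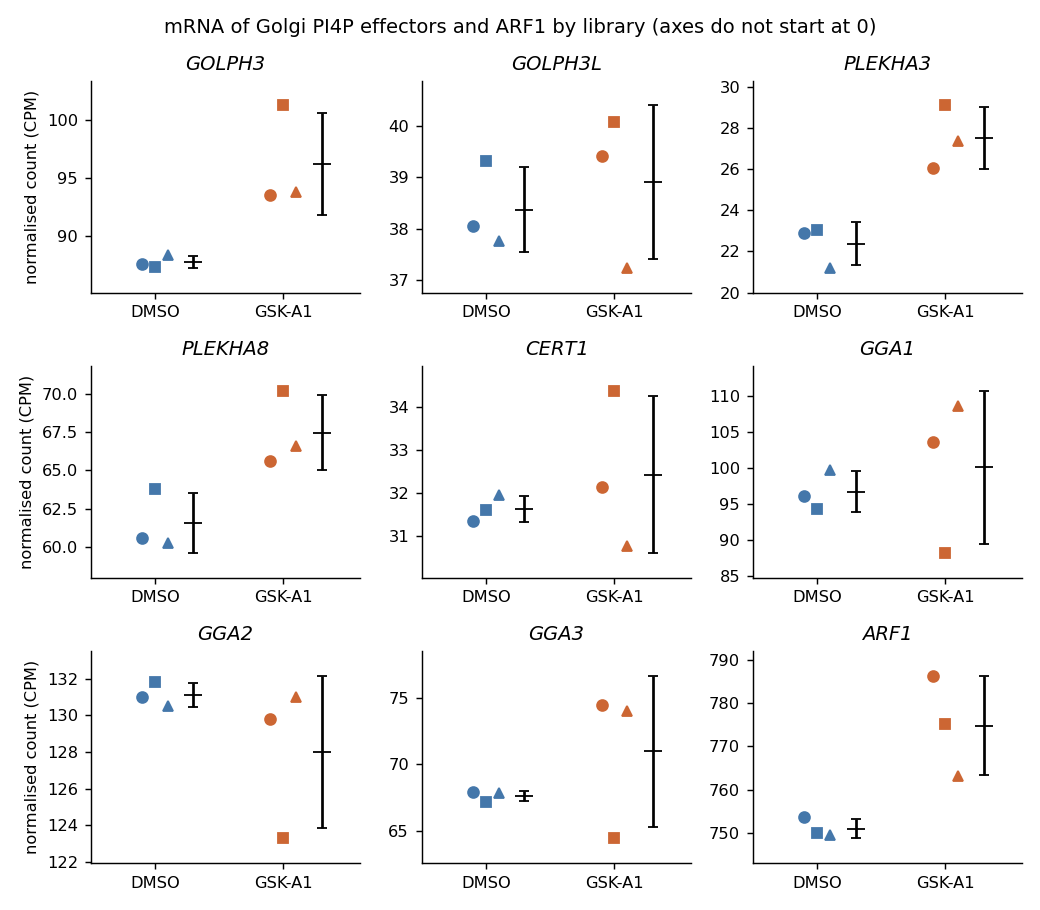
Normalised counts (CPM, vertical axes that do not start at 0) of the 9 genes in each DMSO (blue) and GSK-A1 (orange) library; circles, squares and triangles are replicates 1 to 3, and the bar is the mean ± SD (n = 3). The groups do not overlap for GOLPH3, PLEKHA3, PLEKHA8 and ARF1, and GSK-A1 replicate 2 is the lowest library for GGA1, GGA2 and GGA3.

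PLEKHA3 (ENSG00000116095, GRCh38 chr2:178480468-178516462, plus strand) encodes FAPP1, a small protein whose PH domain binds both PI4P and ARF1 and which is known to aid the PI4P phosphatase SAC1 at contacts between the endoplasmic reticulum and the Golgi. The DMSO libraries gave 22.9, 23.1 and 21.2 CPM for replicates 1, 2 and 3, and the GSK-A1 libraries gave 26.0, 29.1 and 27.4 CPM in the same order. All GSK-A1 libraries lay above all DMSO libraries, and GSK-A1 replicate 2 was the highest. Its log2 fold change was 0.29 ± 0.06 (SE; 95% interval 0.17 to 0.41; edgeR adjusted p = 0.00187). It lay at percentile 93.7 of the log2 fold changes of all tested genes. The call held under each of the 15 alternative fits, with log2 fold changes from 0.25 to 0.34 when 1 library was left out (edgeR adjusted p = 1.12e-04 to 0.0194). With the GC trend of each library removed the log2 fold change was 0.21 (edgeR adjusted p = 0.0031). The pseudogene PLEKHA3P1, at 0.063 CPM, holds 1.46% of the stretches of 50 bases found in the longest PLEKHA3 transcript.

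PLEKHA8 (ENSG00000106086, GRCh38 chr7:30027404-30130483, plus strand) encodes FAPP2, which joins a related PH domain to a lipid transfer domain and carries glucosylceramide within the Golgi. Its level was 60.6, 63.8 and 60.3 CPM with DMSO and 65.6, 70.2 and 66.6 CPM with GSK-A1, in replicates 1 to 3. The groups did not overlap, though GSK-A1 replicate 1 was less than 2 CPM above DMSO replicate 2. A log2 fold change of 0.13 ± 0.04 resulted (SE; 95% interval 0.04 to 0.22; edgeR adjusted p = 0.0392). That call was lost without DMSO replicate 1, 2 or 3 (edgeR adjusted p = 0.148, 0.0586 and 0.161) and without GSK-A1 replicate 1 (0.0513). It was lost as well with the GC trend removed (0.0546), with upper-quartile factors (0.132) and when libraries were scaled by their totals alone (0.0570). The pseudogene PLEKHA8P1 shares 7.05% of the stretches of 50 bases with PLEKHA8 and had 0.082 CPM.

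GOLPH3 (ENSG00000113384, GRCh38 chr5:32124704-32174350, minus strand) encodes a PI4P-binding protein that holds glycosyltransferases in the Golgi through the COPI coat and links the membrane to actin through the myosin MYO18A. It had 87.6, 87.4 and 88.4 CPM with DMSO and 93.5, 101 and 93.8 CPM with GSK-A1. The 3 DMSO values lay close together, and all GSK-A1 values were above them. GOLPH3 thus had a log2 fold change of 0.13 ± 0.04 (SE; 95% interval 0.04 to 0.22; edgeR adjusted p = 0.0304). It was 0.10 without GSK-A1 replicate 2 (edgeR adjusted p = 0.0177). The call was lost without DMSO replicate 1, 2 or 3 (edgeR adjusted p = 0.104, 0.115 and 0.0946) and under upper-quartile factors (0.108), whereas it held once each library's GC trend was taken out (log2 fold change 0.11; edgeR adjusted p = 0.0142).

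GOLPH3L (ENSG00000143457, GRCh38 chr1:150646225-150697144, minus strand) encodes the paralog, which also binds PI4P but is known not to bind MYO18A. It ranged from 37.8 to 39.3 CPM with DMSO and from 37.2 to 40.1 CPM with GSK-A1, so the groups overlapped. Its log2 fold change of 0.02 ± 0.05 had a 95% interval of -0.08 to 0.12 (edgeR adjusted p = 0.801), and its sign turned under upper-quartile factors and with the GC trend removed (both -0.02).

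CERT1 (ENSG00000113163, GRCh38 chr5:75356345-75512138, minus strand) encodes the ceramide transfer protein, which uses a PI4P-binding PH domain on the Golgi side and VAP proteins on the side of the endoplasmic reticulum. It ranged from 31.3 to 32.0 CPM with DMSO and from 30.8 to 34.4 CPM with GSK-A1. Between groups the log2 fold change was 0.04 ± 0.05 (95% interval -0.07 to 0.14; edgeR adjusted p = 0.662). Its 3 GSK-A1 values spread on both sides of the DMSO range, with replicate 2 the highest, and without that library the log2 fold change was -0.00070.

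**Figure D2:**
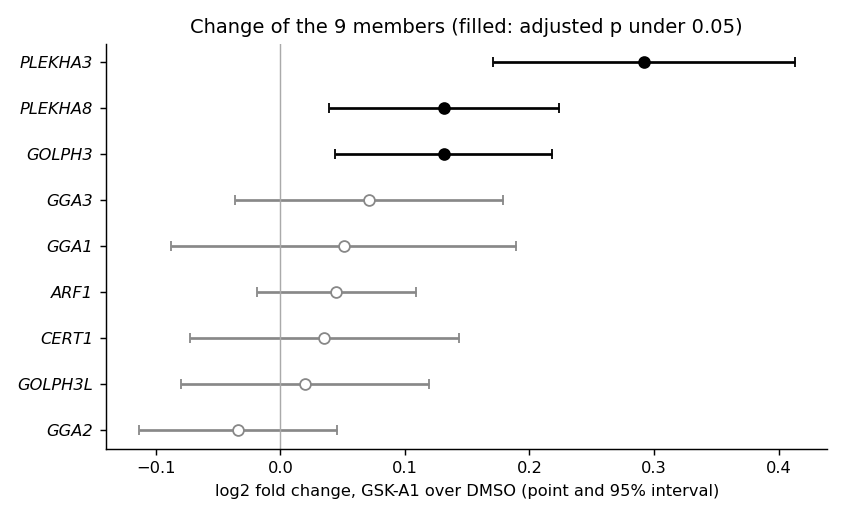
Log2 fold change (horizontal axis) of GSK-A1 over DMSO for each of the 9 genes, as the point and its 95% interval from edgeR (3 libraries per group); filled points passed an adjusted p of 0.05. PLEKHA3 has the highest value at 0.29, PLEKHA8 and GOLPH3 stand at 0.13, and the intervals of the other 6 genes include 0.

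The GGA genes encode monomeric clathrin adaptors that are placed on the trans-Golgi by ARF1 and PI4P and collect mannose 6-phosphate receptors and sortilin for delivery to endosomes. None was called with all 6 libraries. GGA1 (ENSG00000100083, GRCh38 chr22:37608475-37633564, plus strand) had 96.1, 94.3 and 99.7 CPM with DMSO and 104, 88.1 and 109 CPM with GSK-A1. GGA3 (ENSG00000125447, GRCh38 chr17:75236599-75262363, minus strand) had 67.9, 67.2 and 67.8 CPM with DMSO and 74.5, 64.5 and 74.0 CPM with GSK-A1. In both genes GSK-A1 replicates 1 and 3 were above every DMSO library and GSK-A1 replicate 2 was below every DMSO library. The log2 fold changes were 0.05 ± 0.06 for GGA1 (95% interval -0.09 to 0.19; edgeR adjusted p = 0.610) and 0.07 ± 0.05 for GGA3 (-0.04 to 0.18; edgeR adjusted p = 0.342). Without GSK-A1 replicate 2 both were called as higher, GGA1 by 0.14 (edgeR adjusted p = 9.3e-04) and GGA3 by 0.14 (edgeR adjusted p = 0.00132). Without GSK-A1 replicate 3 the GGA1 value turned to -0.0060.

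GGA2 (ENSG00000103365, GRCh38 chr16:23463542-23521995, minus strand), the most abundant of the 3 by CPM, ranged from 130.5 to 132 CPM with DMSO and stood at 129.8, 123 and 131 CPM with GSK-A1. Its log2 fold change was -0.03 ± 0.04 (95% interval -0.11 to 0.05; edgeR adjusted p = 0.553), and it was -0.0041 without GSK-A1 replicate 2. Here too that library was the lowest of the 6, but replicates 1 and 3 lay beside the DMSO libraries rather than above them.

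ARF1 (ENSG00000143761, GRCh38 chr1:228082660-228099212, plus strand) encodes the GTPase that recruits COPI, AP-1, the GGAs and PI4KB. It had 754, 749.9 and 749.5 CPM with DMSO and 786, 775 and 763 CPM with GSK-A1. All GSK-A1 libraries were above all DMSO libraries, as they were in 4 of the 9 members and in 20.2% of all tested genes. The log2 fold change of 0.04 ± 0.03 was not called (95% interval -0.02 to 0.11; edgeR adjusted p = 0.307).

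Paralogs were then set against each other within each library, as the log2 ratio of their counts, which does not depend on how libraries are scaled. Over 6 pairs, exact two-sided permutation tests on 3 against 3 libraries could give no p below 0.1, or 0.15 after Benjamini-Hochberg adjustment over the 6 pairs. The ratio of GOLPH3L to GOLPH3 had a mean of -1.19 ± 0.04 (SD, n = 3) in DMSO libraries and -1.31 ± 0.05 in GSK-A1 libraries, with all of the latter lower (exact p = 0.1). For PLEKHA8 to PLEKHA3 it was 1.46 ± 0.05 and 1.30 ± 0.03, again with no overlap (exact p = 0.1). GGA3 to GGA2 stood at -0.95 ± 0.02 and -0.85 ± 0.07 with no overlap (exact p = 0.1), even though GSK-A1 replicate 2, at -0.935, lay close to the highest DMSO value of -0.944. GGA1 to GGA2 overlapped between groups, at -0.44 ± 0.05 and -0.36 ± 0.11 (exact p = 0.4), and so did GGA1 to GGA3, at 0.52 ± 0.04 and 0.49 ± 0.05 (exact p = 0.5). ARF1 was compared with ARF3, its close relative of the same class, and their ratio was higher in all GSK-A1 libraries, at 2.74 ± 0.04 with DMSO and 2.88 ± 0.02 with GSK-A1 (exact p = 0.1). ARF3 itself had 112 ± 2.64 CPM with DMSO and 105 ± 0.99 CPM with GSK-A1, and its log2 fold change of -0.09 ± 0.04 was not called (edgeR adjusted p = 0.0912) except under upper-quartile factors (-0.13; edgeR adjusted p = 0.0179).

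**Figure D3:**
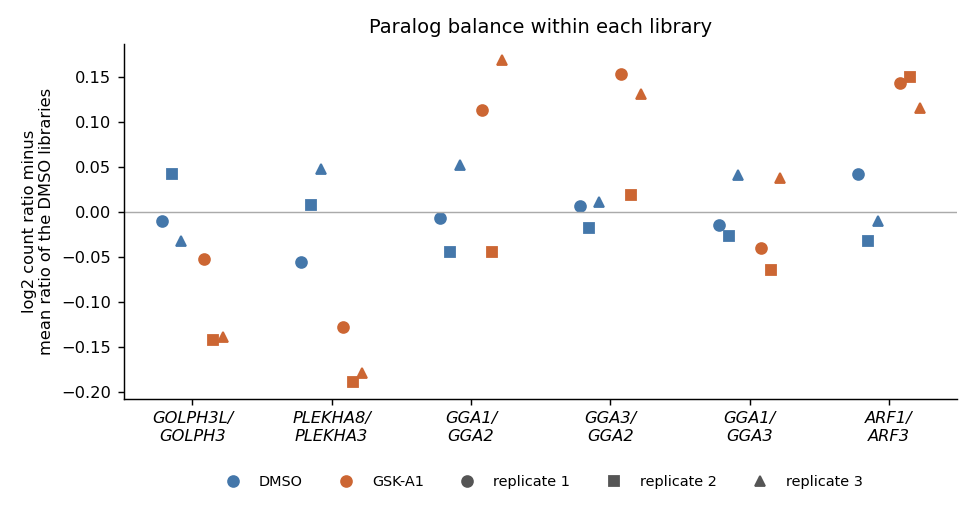
Log2 ratio of the counts of 2 paralogs in each library minus the mean ratio of the 3 DMSO libraries (vertical axis), for 6 pairs; blue is DMSO, orange is GSK-A1 and the symbol gives the replicate. The GSK-A1 libraries lie below the DMSO libraries for GOLPH3L/GOLPH3 and PLEKHA8/PLEKHA3 and above them for ARF1/ARF3 and GGA3/GGA2, where replicate 2 lies nearest to DMSO.

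GSK-A1 replicate 2 departed from replicates 1 and 3 in opposite directions among the members. On the log2 scale it was above their mean by 0.12 in PLEKHA3, 0.13 in CERT1, 0.11 in GOLPH3, 0.09 in PLEKHA8 and 0.07 in GOLPH3L, and it was the highest of all 6 libraries in these 5 genes. It differed by -0.27 in GGA1, -0.20 in GGA3 and -0.08 in GGA2, where it was the lowest, and by 0.00096 in ARF1. The GC content of the longest transcript was 37.3% for PLEKHA3, 41.0% for CERT1, 41.1% for GOLPH3L, 41.8% for PLEKHA8 and 44.9% for GOLPH3, against 49.4% for GGA2, 55.7% for ARF1, 57.1% for GGA3 and 62.0% for GGA1. The same departure over all tested genes had a median of 0.13 below 40% GC and -0.12 at 60% or above. The log2 fold change between groups also had a median of 0.07 below 40% GC and -0.09 at 60% or above.

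With each library's GC trend removed, 5 members were called, against 25.5% of all tested genes. PLEKHA3 and GOLPH3 were joined by GGA1 (log2 fold change 0.12; edgeR adjusted p = 0.0303), GGA3 (0.12; edgeR adjusted p = 0.0218) and ARF1 (0.08; edgeR adjusted p = 0.0404), all higher. Leaving out GSK-A1 replicate 2 instead also gave 5 called members, where 28.1% of genes were called: PLEKHA3, GOLPH3, PLEKHA8, GGA1 and GGA3.

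**Figure D4:**
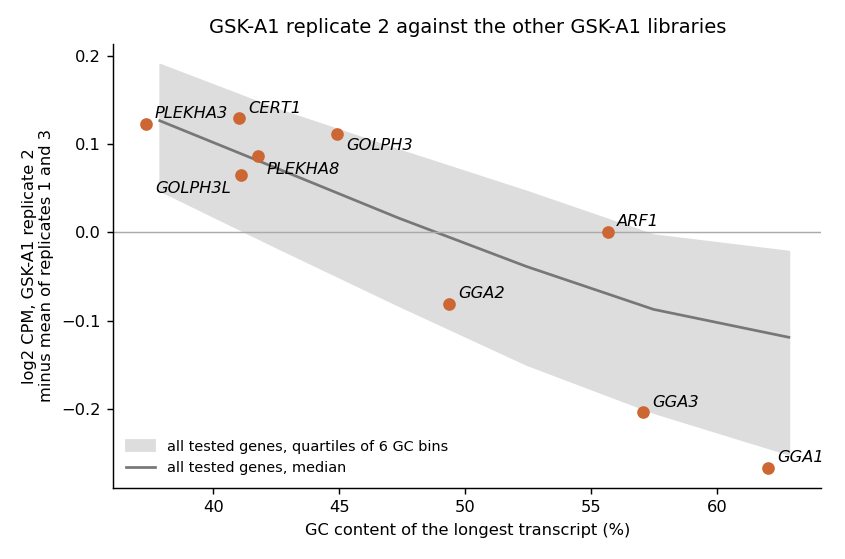
Log2 CPM of GSK-A1 replicate 2 minus the mean of GSK-A1 replicates 1 and 3 (vertical axis) against the GC content of the longest transcript (horizontal axis) for the 9 genes; the grey line and band are the median and quartiles of all tested genes in 6 GC bins. The 5 genes below 45% GC lie above 0 and the 3 GGA genes below it.

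Genes whose course over the 6 libraries came nearest to that of PLEKHA3 were sought among 9824 other tested genes with a symbol and a mean of at least 10 CPM, by the Euclidean distance of their centred log2 CPM. The nearest were RORA (distance 0.038), SAV1 (0.056) and CCDC126 (0.057). RORA, a nuclear receptor, went from 16.2 ± 0.72 to 19.8 ± 0.76 CPM (SD, n = 3), and SAV1, a scaffold of the Hippo pathway, from 34.6 ± 1.64 to 42.5 ± 2.67 CPM. Like PLEKHA3, each was highest in GSK-A1 replicate 2 and lowest in DMSO replicate 3. The search picked genes for such a likeness over the same libraries, so their shared course and rise are no separate result.

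The partners of these proteins were read from 7 lists with 85 genes, of which 84 were tested. Of these, 25 were called as higher and 4 as lower, against 12.0% and 10.9% of all tested genes. The lists were chosen with earlier results of these data known, and none was tested as a set. In the list of the GOLPH3 partner and Golgi structure, 7 of 12 genes rose and 1 fell, with a median log2 fold change of 0.12. They included MAN2A1, a mannosidase of N-glycan processing (0.36 ± 0.05; edgeR adjusted p = 1.25e-04), and GOLGA4, a tethering golgin (0.21 ± 0.05; edgeR adjusted p = 0.00351), while the golgin GOLGA1 fell (-0.20 ± 0.05; edgeR adjusted p = 0.0158). The GOLGA1 call was lost without DMSO replicate 1 or 3 or GSK-A1 replicate 1 (edgeR adjusted p up to 0.105). With the GC trend removed the list's median was 0.10, with 6 genes higher and 1 lower. Of 16754 tested genes, 2229 were then called as higher and 2050 as lower. MAN2A1, GOLGA4 and GOLGA1 then had 0.26, 0.15 and -0.20 and stayed called. MYO18A stood at 76.6 and 75.5 CPM and was not called.

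Around the ceramide carriers CERT1 and FAPP2, 8 of 19 genes of sphingolipid enzymes and CERT partners rose and 0 fell in edgeR (7 and 0 in DESeq2). Of all tested genes 12.0% were higher and 10.9% lower in edgeR, and the list's median was 0.12. At an unadjusted p under 0.05 there were 12 higher and 1 lower, against the 18.1% and 17.7% of all tested genes. Under upper-quartile factors and with the GC trend removed 1 gene of the list was called as lower, where 2688 and 2050 of 16754 tested genes were. SGMS2, a sphingomyelin synthase, went from 36.0 ± 1.41 to 48.1 ± 3.17 CPM (0.42 ± 0.05; edgeR adjusted p = 5.25e-05), and CERS2, a ceramide synthase, from 286 ± 3.83 to 324 ± 5.31 CPM (0.18 ± 0.03; edgeR adjusted p = 0.0011). With the GC trend removed SGMS2 had 0.33 and CERS2 0.21, both called, and the list's median was 0.08. The 8 became 4, 4 and 5 without DMSO replicates 1, 2 and 3, and 5 without GSK-A1 replicate 1, fits in which 6.78%, 7.23%, 6.77% and 9.4% of all tested genes were called as higher. Without GSK-A1 replicate 2 there were 11 higher and 2 lower, where 15.2% of all genes were higher. The 7 genes of the Golgi structure list became 2, 2, 3 and 4 without DMSO replicates 1, 2 and 3 and GSK-A1 replicate 1. They became 4 without GSK-A1 replicate 3, where 12.1% of all tested genes were higher. Under upper-quartile factors they became 2 and the sphingolipid list had 5, where 1339 of 16754 tested genes were higher.

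For the lists that follow, the shares over all tested genes were 12.0% higher and 10.9% lower. In either direction 30%, 33.3% and 27.8% of the kinase, ARF and AP-1 lists were called, near the 22.9% of all tested genes. Under upper-quartile factors these shares were 20%, 50% and 16.7%, against 24.0% of all tested genes. The ARF list then had 2 genes higher and 4 lower. Of the kinases, SAC1 and recruiters of PI4P, 3 of 10 rose and 0 fell. PITPNB, which supplies phosphatidylinositol (0.18 ± 0.04; edgeR adjusted p = 0.00373), and NCS1, a partner of PI4KB (0.14 ± 0.04; edgeR adjusted p = 0.0104), were among them. PI4KB, the Golgi enzyme, was not called at 0.05 ± 0.04 (edgeR adjusted p = 0.353) but was at 0.10 without GSK-A1 replicate 2 (edgeR adjusted p = 0.0154), and PI4KA, the target of GSK-A1, had -0.04 ± 0.04 (edgeR adjusted p = 0.456). Among other ARF genes and their regulators 2 of 12 rose and 2 fell: ARFGAP3 (0.22 ± 0.04) and the exchange factor ARFGEF1 (0.19 ± 0.05) were higher, and ARFGAP2 (-0.28 ± 0.06) and ARF5 (-0.14 ± 0.04) were lower. In the list of AP-1, clathrin and GGA cargo, 4 of 18 rose and 1 fell, led by the AP-1 sigma subunits AP1S2 (0.32 ± 0.05) and AP1S3 (0.32 ± 0.06), with the receptor SORL1 lower (-0.22 ± 0.07). Of 9 COPI subunits 0 were called by edgeR with all libraries and TMM factors, or by DESeq2. At an unadjusted p under 0.05 there was 1 higher and 1 lower, against 18.1% and 17.7% of all tested genes. Exactly 1 subunit was called as lower by limma-voom, under upper-quartile factors, with at least 1 CPM in 3 libraries, with the replicate block and with the GC trend removed, and 1 higher and 1 lower without GSK-A1 replicate 2. Over all tested genes these fits called, in the same order, 22.5%, 24.0%, 27.7%, 24.6%, 25.5% and 28.1% in either direction. Among 4 oxysterol-binding proteins of the Golgi OSBP rose (0.14 ± 0.04). With the GC trend removed the genes named above as called stayed called. PITPNB, NCS1, ARFGAP3 and ARFGEF1 had 0.13, 0.19, 0.20 and 0.14, and ARFGAP2 and ARF5 had -0.23 and -0.09. AP1S2, AP1S3, SORL1 and OSBP had 0.21, 0.27, -0.23 and 0.14. PI4KB was then called as higher at 0.09 (edgeR adjusted p = 0.0316). Without DMSO replicates 1, 2 and 3 and GSK-A1 replicate 1 in turn, the 3 higher genes of the kinase list became 2, 1, 1 and 2, and the 4 of the AP-1 list became 2, 2, 2 and 3. The 2 higher genes of the ARF list became 1, 2, 1 and 2, and its 2 lower genes became 1, 1, 1 and 2. In these fits 6.78%, 7.23%, 6.77% and 9.4% of all tested genes were higher. Without GSK-A1 replicate 2 the AP-1 list had 6 higher and 2 lower, the kinase list 4 and 0, and the ARF list 3 and 2. In that fit 15.2% of all tested genes were higher. Leaving out 1 library took the edgeR adjusted p as high as 0.108 for ARF5 (without DMSO replicate 1, 2 or 3 or GSK-A1 replicate 3) and 0.163 for SORL1 (any library but GSK-A1 replicate 2). It reached 0.122 for OSBP (without DMSO replicate 2 or 3 or GSK-A1 replicate 1), 0.0795 for ARFGEF1 (DMSO replicate 1 or 3) and 0.0623 for NCS1 (DMSO replicate 2 or 3). Under upper-quartile factors the calls of OSBP and NCS1 were lost as well (edgeR adjusted p = 0.0905 and 0.0533). SORL1 was not called by DESeq2 (DESeq2 adjusted p = 0.0959), nor ARF5 with every gene of at least 1 count kept (edgeR adjusted p = 0.0508).

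**Figure D5:**
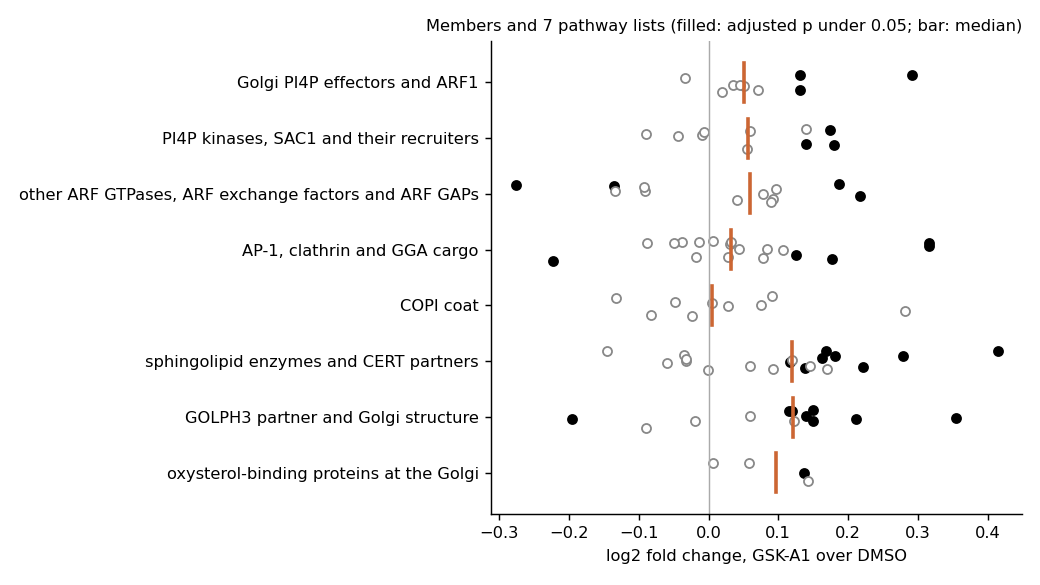
Log2 fold change of GSK-A1 over DMSO (horizontal axis) for each tested gene of the 9 members and of the 7 pathway lists; filled points passed an adjusted p of 0.05, and the bar is the list's median. Medians run from 0.0056 for the COPI coat to 0.12 for the lists of Golgi structure and of sphingolipid enzymes, with 0.05 for the members.

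Without a stated strand setting, reads of overlapping genes on the opposite strand cannot be told apart. MRPS7 covers 3.21% of the exonic bases of GGA3, and POLK covers 1.27% of those of CERT1.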

How the data were processed

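The authors deposited unnormalized read counts for each gene, with a column for each library. Per the submitters' processing notes the tools were cutadapt 5.1, STAR 2.7.11b, featureCounts of Subread 2.1.1 and DESeq2 1.38.0, with the build GRCh38.p13. The annotation release, strand setting and filters are not given in the sources used here. Groups and replicate numbers came from the sample titles, and all 6 libraries carried the same lane label.

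Counts were tested with edgeR 4.0.16 in R 4.3.3 on the whole table: filterByExpr (smallest count 10, smallest total 15), TMM factors, robust dispersions and the quasi-likelihood F test of group. Standard errors are the log2 coefficient over the square root of F, and 95% intervals use the test's degrees of freedom. Adjustment of p-values (Benjamini-Hochberg) ran over every gene tested. Counting intervals would cover reads only, so errors come from replicates. Positions, lengths, GC content and overlaps came from GENCODE 29 (GRCh38), whose release may differ from the one behind the counts. The code was tested on simulated counts. These had no GC trend and no library that stood apart, and the planted changes were larger than those of the members. That test therefore does not show how reliable calls of the members' size are here.

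The members and lists were chosen with earlier results of these data known. Genes named were the members, ARF3, PI4KA, PI4KB, up to 2 called genes per pathway list and direction by p, and the 3 genes nearest to the member with the smallest p. The alternatives were other library factors, count filters, DESeq2 1.42.0, limma-voom (limma 3.58.1), the replicate number as a block, an adjusted p under 0.01, removal of each library's GC trend (loess, span 0.3) and leaving out each library.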

Additional observations from a re-analysis of the deposited data

How the results depend on the processing

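The count of 3 called members was 3 under RLE factors, both other count filters, DESeq2, limma-voom and the replicate block, 2 with library totals only, 1 under upper-quartile factors and at an adjusted p under 0.01, 5 with the GC trend removed and 1 to 5 when 1 library was left out. The 3835 genes called became 1871 at an adjusted p under 0.01, 4127 with the replicate block, 3073 with DESeq2 and 2163 to 4890 when 1 library was left out, and the 29 pathway genes became 11, 32, 27 and 13 to 42. Higher genes made up 52.3% of all calls with TMM and 33.3% with upper-quartile factors. Log2 fold changes that turned sign were those of GOLPH3L (-0.021 under upper-quartile factors and -0.024 with the GC trend removed), CERT1 (-0.0054 and -0.0094 under the same, and -0.00070 to 0.074 with 1 library left out) and GGA1 (-0.0060 to 0.14 with 1 library left out). The cause was not tested. All 6 paralog ratios kept their direction with a pseudocount, with 1 library left out and with the replicate block. With the GC trend removed, an alternative chosen after seeing the data and not tested, GGA1 to GGA3 turned from -0.02 to 0.0043, and the other 5 kept their direction. Same-numbered libraries deviated together little (r = 0.011, 0.019 and 0.032 across genes), so the numbers were not taken to pair them, and the block changed the call of no member. Members had at least 702 counts, and how much of an interval comes from counting was not tested.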

Other observations

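Beyond the genes named by rule, other members of the sphingolipid list that rose or did not pass are given here, picked out after their values were seen and with no test of the list. The GC trend was not removed from these values. SPTLC2, of the first enzyme of sphingoid base synthesis, rose by 0.22 ± 0.04 (log2, SE; edgeR adjusted p = 0.0022) and SPTLC1 by 0.14 ± 0.05 (edgeR adjusted p = 0.0459). The ceramide synthase CERS6 rose by 0.12 ± 0.04 (edgeR adjusted p = 0.0427). At the Golgi, the sphingomyelin synthase SGMS1 rose by 0.17 ± 0.05 (edgeR adjusted p = 0.0258) and UGCG, which makes glucosylceramide, by 0.28 ± 0.05 (edgeR adjusted p = 0.0016). PPM1L, a phosphatase known to act on CERT, rose by 0.16 ± 0.04 (edgeR adjusted p = 0.0127). SPTLC2 and UGCG stayed called with any 1 library left out. The calls of SPTLC1, CERS6 and SGMS1 were lost without DMSO replicate 1, 2 or 3 or GSK-A1 replicate 1 (edgeR adjusted p up to 0.211, 0.160 and 0.102), and that of PPM1L without DMSO replicate 1 or 2 (up to 0.0723). Other enzymes of the same list were not called: CERS5 had 0.06 ± 0.05 (edgeR adjusted p = 0.395), and B4GALT5, B4GALT6 and ST3GAL5, which act after glucosylceramide, had 0.12 ± 0.04, 0.15 ± 0.06 and 0.17 ± 0.06 (edgeR adjusted p = 0.0581, 0.101 and 0.0591). The CERT partners VAPA and VAPB had opposite signs, 0.09 ± 0.04 and -0.06 ± 0.04 (edgeR adjusted p = 0.0941 and 0.334). All GSK-A1 libraries lay above all DMSO libraries for VAPA, B4GALT5, B4GALT6 and ST3GAL5. The same held for 12 of the list's 19 genes and for 20.2% of all tested genes. In 1 gene of the list, PRKD1, all GSK-A1 libraries lay below, as in 3412 of 16754 tested genes. GLTP, a glycolipid transfer protein, had -0.03 ± 0.05 (edgeR adjusted p = 0.701). The protein kinase D genes, whose products phosphorylate CERT, were not called: the values were -0.15 ± 0.06 for PRKD1 (edgeR adjusted p = 0.0723), -0.03 ± 0.05 for PRKD2 and -0.00027 for PRKD3.

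Of the cargo receptors of the GGAs, SORT1, sortilin, rose by 0.13 ± 0.04 (edgeR adjusted p = 0.0187, and up to 0.0802 without DMSO replicate 1, 2 or 3 or GSK-A1 replicate 1), IGF2R, the large mannose 6-phosphate receptor, had 0.11 ± 0.04 (edgeR adjusted p = 0.0506) and M6PR, the small one, 0.0061 ± 0.04 (edgeR adjusted p = 0.931). Differences between the receptors were not tested, and they were also chosen after their values were seen.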
